A study of Homo sapiens with 6 samples.

Results

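The numbered zinc finger genes of chromosome 19 were described in RNA from ovarian carcinoma cells made to express BARD1 and from control cells. Members were the rows annotated as protein coding on chromosome 19 whose symbol was ZNF followed by a number, together with ZIK1. This gave 250 of the 58735 genes in the deposited count table. The rule uses name and position and no measured value, but it was chosen with earlier results of these data known. Of these, 240 carried the table's own annotation of the C2H2 zinc finger family and 3 were read-through genes.

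C2H2 zinc finger proteins bind DNA through tandem fingers, each of which contacts a few bases. Many of those encoded on chromosome 19 also carry a KRAB domain, which recruits the co-repressor TRIM28 (KAP1) and, through it, the histone methyltransferase SETDB1 and heterochromatin protein 1, and many of them silence transposable elements. Their genes lie in clusters that arose by repeated local duplication, so neighbours are often related in sequence. BARD1 is the RING-domain partner of BRCA1 in a ubiquitin ligase that acts in DNA repair.

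The study asked how BARD1 affects expression in these cells, with angiogenesis pathways as its stated interest. It compared 3 libraries of BARD1-expressing cells with 3 libraries of control cells, all labelled as stable cells at 48 h. Per the labels' protocols, the BARD1-expressing line was made by lentiviral transduction of OVCAR8, an ovarian carcinoma line, with a BARD1 open reading frame; the sources used here do not say what the control cells carried. The titles name OVCAR8ip1 cells whereas other tags name SKOV3ip1, a different ovarian carcinoma line, and SKOV3ip1 tumors, so the line and the kind of material are in conflict. The protocol describes 1 transduced line, and the design cannot tell an effect of BARD1 from any other difference between that line and the control. The replicates are called biological without further detail, and p-values here reflect only the spread among the 6 libraries.

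Total counts ranged from 12744310 to 24349158 in the BARD1-expressing libraries and from 21819199 to 23992482 in the control libraries. The 3 counts that a count of 0 allows correspond to between 0.123 and 0.235 CPM (counts scaled to a common library total) across the 6 libraries, which covers counting error only. BARD1 itself had 623, 1072 and 688 counts in the BARD1-expressing libraries, against 414, 392 and 420 in control, or 46.3 ± 2.43 CPM against 17.9 ± 1.30 CPM (SD, n = 3 each). Of 7 ovarian serous carcinoma markers, 5 exceeded a mean of 1 CPM over the 6 libraries, WT1 stayed below it and MUC16 had no count in any library. PAX8 fell to 91.4 ± 6.09 CPM in BARD1-expressing cells, against 143 ± 8.98 CPM in control cells (SD, n = 3 each), by 0.65 on the log2 scale, while KRT7 rose by 0.34 and WT1, at low counts, was called higher. Leukocyte markers summed to between 0.708 and 1.39 CPM in BARD1-expressing and between 0.613 and 0.866 CPM in control libraries, and endothelial markers to between 0.702 and 0.929 CPM in BARD1-expressing and between 0.330 and 0.482 CPM in control libraries. Of 4 fibroblast and pericyte markers, whose sum was 839 to 886 CPM in BARD1-expressing and 1014 to 1082 CPM in control libraries, PDGFRB and LUM rose, COL1A1 fell and DCN had no count. The part of these marker differences in the results below was not tested.

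The 250 bases before the RefSeq start (GRCh38.p14) are shown for 4 genes: ZIK1 and ZNF134, neighbours that both rose, ZNF404, which fell most on the log2 scale, and ZNF208, from the cluster of members with the fewest CG pairs. They lie on chr19:57583895-57584144 (plus strand) for ZIK1, chr19:57613992-57614241 (plus strand) for ZNF134, chr19:43883965-43884214 (minus strand) for ZNF404 and chr19:22010944-22011193 (minus strand) for ZNF208. They run 5′ to 3′ along the gene, and capitals mark CG pairs.
ZIK1: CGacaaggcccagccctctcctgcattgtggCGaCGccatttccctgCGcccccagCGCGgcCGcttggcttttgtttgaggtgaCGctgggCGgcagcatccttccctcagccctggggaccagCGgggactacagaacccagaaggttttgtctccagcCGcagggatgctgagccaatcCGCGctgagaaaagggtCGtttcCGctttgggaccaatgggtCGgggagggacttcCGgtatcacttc
ZNF134: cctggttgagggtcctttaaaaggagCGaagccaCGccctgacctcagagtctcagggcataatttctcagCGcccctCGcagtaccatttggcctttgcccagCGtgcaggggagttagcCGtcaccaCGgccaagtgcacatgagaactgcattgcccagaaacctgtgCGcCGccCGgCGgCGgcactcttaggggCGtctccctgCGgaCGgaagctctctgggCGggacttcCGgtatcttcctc
ZNF404: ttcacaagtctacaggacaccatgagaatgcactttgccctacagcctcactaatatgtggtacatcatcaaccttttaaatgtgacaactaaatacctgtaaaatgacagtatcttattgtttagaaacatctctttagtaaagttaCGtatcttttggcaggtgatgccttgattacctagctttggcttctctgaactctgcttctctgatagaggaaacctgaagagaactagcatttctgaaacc
ZNF208: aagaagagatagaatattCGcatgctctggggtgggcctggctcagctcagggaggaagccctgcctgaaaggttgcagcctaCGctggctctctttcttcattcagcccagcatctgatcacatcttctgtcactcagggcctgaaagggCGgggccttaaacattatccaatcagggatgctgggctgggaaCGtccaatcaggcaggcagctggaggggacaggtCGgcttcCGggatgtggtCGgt
The windows of ZIK1 and ZNF134 held 17 CG pairs each, that of ZNF208 held 7 and that of ZNF404 held 1. The RefSeq start of ZIK1 lies 5689 bases inside the 5′ end that the count table gives for the gene, and that of ZNF404 lies 17421 bases inside it, so for these genes the window is one of possibly several starts.

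A minority of the zinc finger genes changed, few of them by a large factor, and the median of the group lay slightly below that of all genes. Counts were tested with edgeR's quasi-likelihood test, with Benjamini-Hochberg adjustment over all 15400 genes tested in the table, and a gene counted as changed where the adjusted p was under 0.05. Of the 250 members, 229 had enough counts to be tested, and 28 of them were higher and 21 lower in BARD1-expressing cells. These 49 calls were 21.4% of the tested members, against 29.0% of all tested genes. Calls higher made up 12.2% of the members and 16.5% of all tested genes, and calls lower 9.17% of the members and 12.4% of all tested genes. The median log2 fold change (BARD1-expressing over control) was -0.07 over tested members, with 141 of the 229 below 0. Over all tested genes it was 0.00, with 7768 of the 15400 below 0. ZNF-numbered protein-coding genes of other chromosomes had a median of -0.05, with 145 of 237 tested below 0. These differences were not tested. In bulk RNA, fewer cells of a type and less RNA per cell cannot be told apart.

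Zinc finger genes were expressed at lower levels than the median gene. The median over tested members was 6.19 CPM, against 19.1 CPM over all tested genes. Among genes under 10 CPM, 28 of 150 members were called (18.7%), against 21.4% of all such genes. Among genes of at least 10 CPM, 21 of 79 members were called (26.6%), against 33.8% of all such genes. The share called was thus below the background in both ranges of expression; that difference was not tested. The other protein-coding genes of chromosome 19 had 146 higher and 65 lower of 744 tested (28.4%), and ZNF-numbered genes of other chromosomes had 24 higher and 25 lower of 237 tested (20.7%).

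The calls of at least 2-fold numbered 12, with 9 higher and 3 lower. They made up 5.24% of the tested members, against 4.71% of all tested genes, of which 3.12% were called higher and 1.59% lower at that size. Split by expression, they made up 7.33% of members under 10 CPM, against 9.82% of all such genes, and 1.27% of members of at least 10 CPM, against 1.44% of all such genes. The 9 were ZNF728, ZIK1, ZNF208, ZNF418, ZNF558, ZNF491, ZNF780B, ZNF134 and ZNF585A, and the 3 were ZNF404, ZNF729 and ZNF546. Their values lay apart in the groups in each case. Over all tested members, the values of the groups did not overlap for 87 (38.0%), 39 higher and 48 lower, against 40.9% of all tested genes, 21.7% higher and 19.2% lower.

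**Figure D1:**
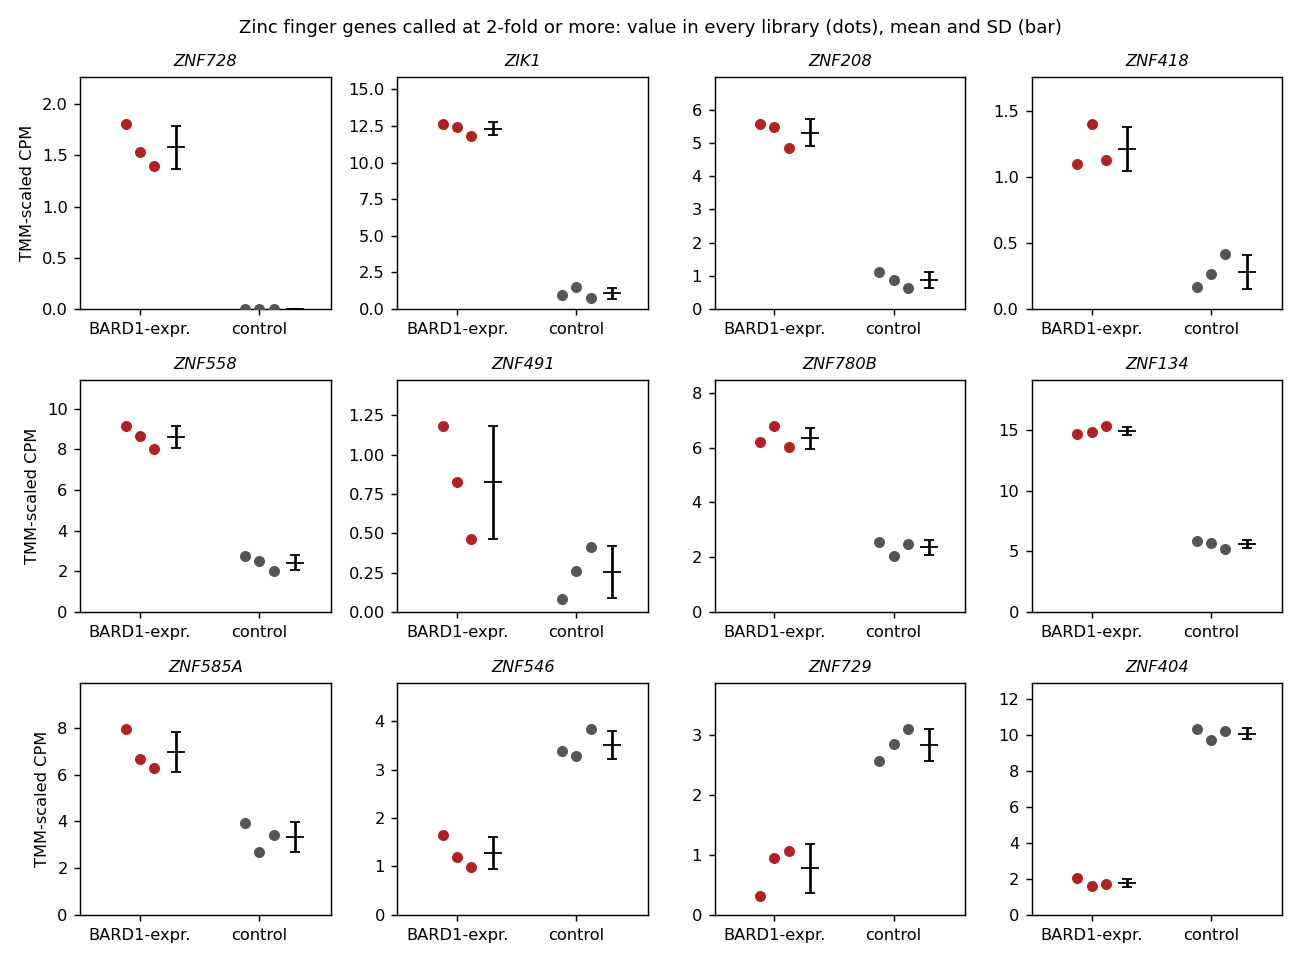
TMM-scaled CPM in each library (dots), with the mean and SD (bars) of 3 BARD1-expressing libraries on the left and 3 control libraries on the right, for the 12 zinc finger genes called at 2-fold or more. ZNF728 had no count in control, and ZNF404 lay between 1.61 and 2.04 CPM in BARD1-expressing libraries, against 9.72 to 10.3 CPM in control.

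A switch was defined as at most 3 counts in every library of one group and at least 10 in every library of the other. Only ZNF728 met this rule among the members, in the on direction, and none met it in the off direction. Among all 19951 protein-coding genes, 22 (0.110%) were switched on and 1 (0.00501%) was switched off by the same rule. ZNF728 (ENSG00000269067, chromosome 19, 22975468 to 23003176, minus strand; gene coordinates here and below are the count table's, on GRCh38) had 23, 37 and 21 counts in BARD1-expressing libraries and 0, 0 and 0 in control. This was 1.81, 1.53 and 1.39 CPM in BARD1-expressing libraries, at least 35.4-fold higher than in control when 3 counts are set for the pooled control (edgeR adjusted p = 1.07e-07). Leaving out any library kept this bound between 23.0-fold, without the first control library, and 37.0-fold. Of the 50-base windows of its transcripts, 8.02% also occurred in transcripts of other genes, most often ZNF676.

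Beside ZNF728, ZNF723 and ZNF175 had counts in every BARD1-expressing library and none in control, but were too low to be tested. Both were called higher where no filter was used and by DESeq2. ZNF723 (ENSG00000268696), the nearest member to the left of ZNF728, had 7, 9 and 12 counts in BARD1-expressing libraries and 0 in each control library, at least 12.3-fold higher (7.97-fold without the first control library). ZNF175 (ENSG00000105497, 51571298 to 51592508), in another cluster, had 3, 13 and 13 counts in BARD1-expressing libraries and 0 in each control library, at least 12.7-fold higher (8.25-fold without the first control library). Without the first BARD1-expressing library, which was also the smallest, ZNF175 met the switch rule too. These 2 genes are named because of their counts. The members on the other side of ZNF728, ZNF730 and ZNF724, were not called, with log2 fold changes of -0.16 ± 0.254 and 0.00 ± 0.171 (SE). ZNF99, on the left, had 2, 6 and 1 counts in BARD1-expressing libraries, against 5, 1 and 4 in control. ZNF728 and ZNF723 were thus at 0 in control, while ZNF99, the next member to the left, was not.

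ZIK1, a KRAB zinc finger gene, had the highest fitted log2 fold change of the members with counts in both groups. The rule names ZIK1 by its symbol and was chosen with earlier results known, so this rank is no separate result. ZIK1 (ENSG00000171649, 57578456 to 57593777, plus strand) had 12.7, 12.4 and 11.8 CPM in BARD1-expressing libraries, against 0.990, 1.49 and 0.738 CPM in control. Its 161, 301 and 178 counts in BARD1-expressing and 24, 34 and 16 counts in control libraries place it above the floor of 3 counts in each control library. This was a log2 fold change of 3.51 ± 0.187 (edgeR adjusted p = 8.1e-13). ZNF134 (ENSG00000213762, 57614233 to 57624723, plus strand), which begins 20456 bases beyond the end of ZIK1, had 14.7, 14.9 and 15.3 CPM in BARD1-expressing libraries, against 5.90, 5.74 and 5.21 CPM in control, a log2 fold change of 1.41 ± 0.116 (edgeR adjusted p = 1.27e-09).

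The nearest other zinc finger genes around ZIK1 and ZNF134 did not pass the test. ZNF530 lies between them and was not called (-0.19 ± 0.162), and neither were ZNF549 (-0.18 ± 0.156), ZNF550 (-0.02 ± 0.155), ZNF211 (-0.30 ± 0.142) and ZNF773 (-0.14 ± 0.232). ZNF416, which overlaps the 5′ end of ZIK1 on the opposite strand, averaged 3.51 ± 0.861 CPM in BARD1-expressing and 4.78 ± 0.729 CPM in control cells (SD, n = 3 each) and was not called. The sources used here do not say whether counting was by strand, so reads of the overlap cannot be assigned to either gene. Of the transcript windows of ZIK1 0.0553% and of those of ZNF134 none occurred in other genes. The longest run shared by the promoter windows of ZIK1 and ZNF134 printed above is the 15 bases gggacttcCGgtatc. It was found in 2 of the 35116 promoters of the table, those of these 2 genes. Because the run was picked by comparing these 2 windows, its rarity elsewhere was nearly fixed by that choice and is no result.

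ZNF208 and ZNF558 rose, while the members next to them were not called or fell. ZNF208 (ENSG00000160321, 21932958 to 22010949, minus strand) had 5.58, 5.49 and 4.84 CPM in BARD1-expressing libraries, against 1.11, 0.876 and 0.646 CPM in control, a log2 fold change of 2.58 ± 0.229 (edgeR adjusted p = 4.46e-09). ZNF43 and ZNF257 on either side of it were at 0.05 ± 0.095 and 0.10 ± 0.124 and were not called. The transcript AC003973.3, annotated inside ZNF208 on the same strand, rose by 2.49 ± 0.354, and reads of the 2 cannot be told apart. ZNF558 (ENSG00000167785, 8806170 to 8832328, minus strand), a KRAB zinc finger gene whose human protein represses the mitophagy gene SPATA18, had 9.12, 8.67 and 8.03 CPM in BARD1-expressing libraries, against 2.76, 2.50 and 2.03 CPM in control. Its log2 fold change was 1.82 ± 0.164 (edgeR adjusted p = 5.58e-09). The nearest members were ZNF414, which fell by 0.29 ± 0.085, and ZNF317, which was not called.

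ZNF418, ZNF491 and ZNF585A completed the genes that rose by 2-fold or more inside clusters, all from low levels. ZNF418 (ENSG00000196724, 57921884 to 57935393), named because of its value, had 14, 34 and 17 counts in BARD1-expressing libraries, against 4, 6 and 9 in control, a log2 fold change of 2.13 ± 0.422. ZNF491 (ENSG00000177599, 11797667 to 11809622) had 15, 20 and 7 counts in BARD1-expressing libraries, against 2, 6 and 9 in control, and its call was lost in 5 of 11 alternatives. ZNF585A (ENSG00000196967, 37106734 to 37172741) averaged 6.98 ± 0.857 CPM in BARD1-expressing and 3.33 ± 0.627 CPM in control cells (SD, n = 3 each), a log2 fold change of 1.05 ± 0.172. It shares 11.0% of its windows with the adjacent ZNF585B, so its count is uncertain.

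ZNF404 had the lowest log2 fold change of the members, in the longest run of adjacent members called the same way. ZNF404 (ENSG00000176222, 43872363 to 43901385, minus strand) had 2.04, 1.61 and 1.73 CPM in BARD1-expressing libraries, against 10.3, 9.72 and 10.2 CPM in control, a log2 fold change of -2.51 ± 0.163 (edgeR adjusted p = 2.33e-11). ZNF283 (ENSG00000167637, 43827292 to 43852017), on its left, fell to 8.42, 10.3 and 9.89 CPM in BARD1-expressing libraries, against 15.6, 15.6 and 14.9 CPM in control. ZNF45 (ENSG00000124459, 43912629 to 43935278), on its right, fell to 14.0, 14.6 and 14.3 CPM in BARD1-expressing libraries, against 23.6, 23.9 and 23.2 CPM in control. The log2 fold changes of ZNF283 and ZNF45 were -0.67 ± 0.109 and -0.72 ± 0.089. In all 3 genes each BARD1-expressing library lay below each control library.

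The lower values around ZNF404 included genes that are not zinc finger genes. LYPD5, which lies left of ZNF283 and encodes a GPI-anchored protein, averaged 1.13 ± 0.424 CPM in BARD1-expressing and 2.77 ± 0.207 CPM in control cells (SD, n = 3 each) and fell by 1.33 ± 0.268. The lincRNA AC006213.2, which overlaps ZNF404 on the same strand and shares 16.2% of its windows, fell by 2.35 ± 0.486. AC006213.6, which overlaps ZNF404 on the opposite strand, was also called lower, with a log2 fold change of -1.76 ± 0.512. It had 1, 4 and 9 counts in BARD1-expressing libraries, against 23, 16 and 25 in control. Strand use in counting is not given, so the counts of ZNF404 and of both overlapping transcripts are uncertain. The next member on the right, ZNF221, was not called (0.29 ± 0.295). From LYPD5 to ZNF45, the 4 protein-coding genes LYPD5, ZNF283, ZNF404 and ZNF45 were thus all lower in BARD1-expressing cells.

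ZNF729 and ZNF546 fell, and ZNF546 lies beside a gene that rose. ZNF729 (ENSG00000196350, 22286408 to 22317176) had 4, 23 and 16 counts in BARD1-expressing libraries, against 62, 65 and 67 in control, a log2 fold change of -1.79 ± 0.297, and it lies in the same cluster as ZNF208 and ZNF728. ZNF546 (ENSG00000187187, 39984134 to 40021041, plus strand) had 1.65, 1.20 and 0.995 CPM in BARD1-expressing libraries, against 3.38, 3.28 and 3.83 CPM in control, a log2 fold change of -1.47 ± 0.239. ZNF780B (ENSG00000128000, 40028260 to 40056209, minus strand) has its 3′ end 7219 bases beyond that of ZNF546. ZNF780B had 6.21, 6.77 and 6.04 CPM in BARD1-expressing libraries, against 2.56, 2.06 and 2.49 CPM in control, a log2 fold change of 1.42 ± 0.173. ZNF780A (ENSG00000197782, 40069152 to 40090938, minus strand), the next gene and its paralogue, fell to 11.1 ± 2.16 CPM in BARD1-expressing cells, against 17.1 ± 1.86 CPM in control cells (SD, n = 3 each). ZNF780B shares 1.74% of its windows with ZNF780A. The 3 neighbours were thus lower, higher and lower in BARD1-expressing cells. Beyond them, PSMC4 on the left and MAP3K10 on the right, which are not zinc finger genes, were also called lower. Their log2 fold changes were -0.45 ± 0.053 and -0.41 ± 0.115.

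**Figure D2:**
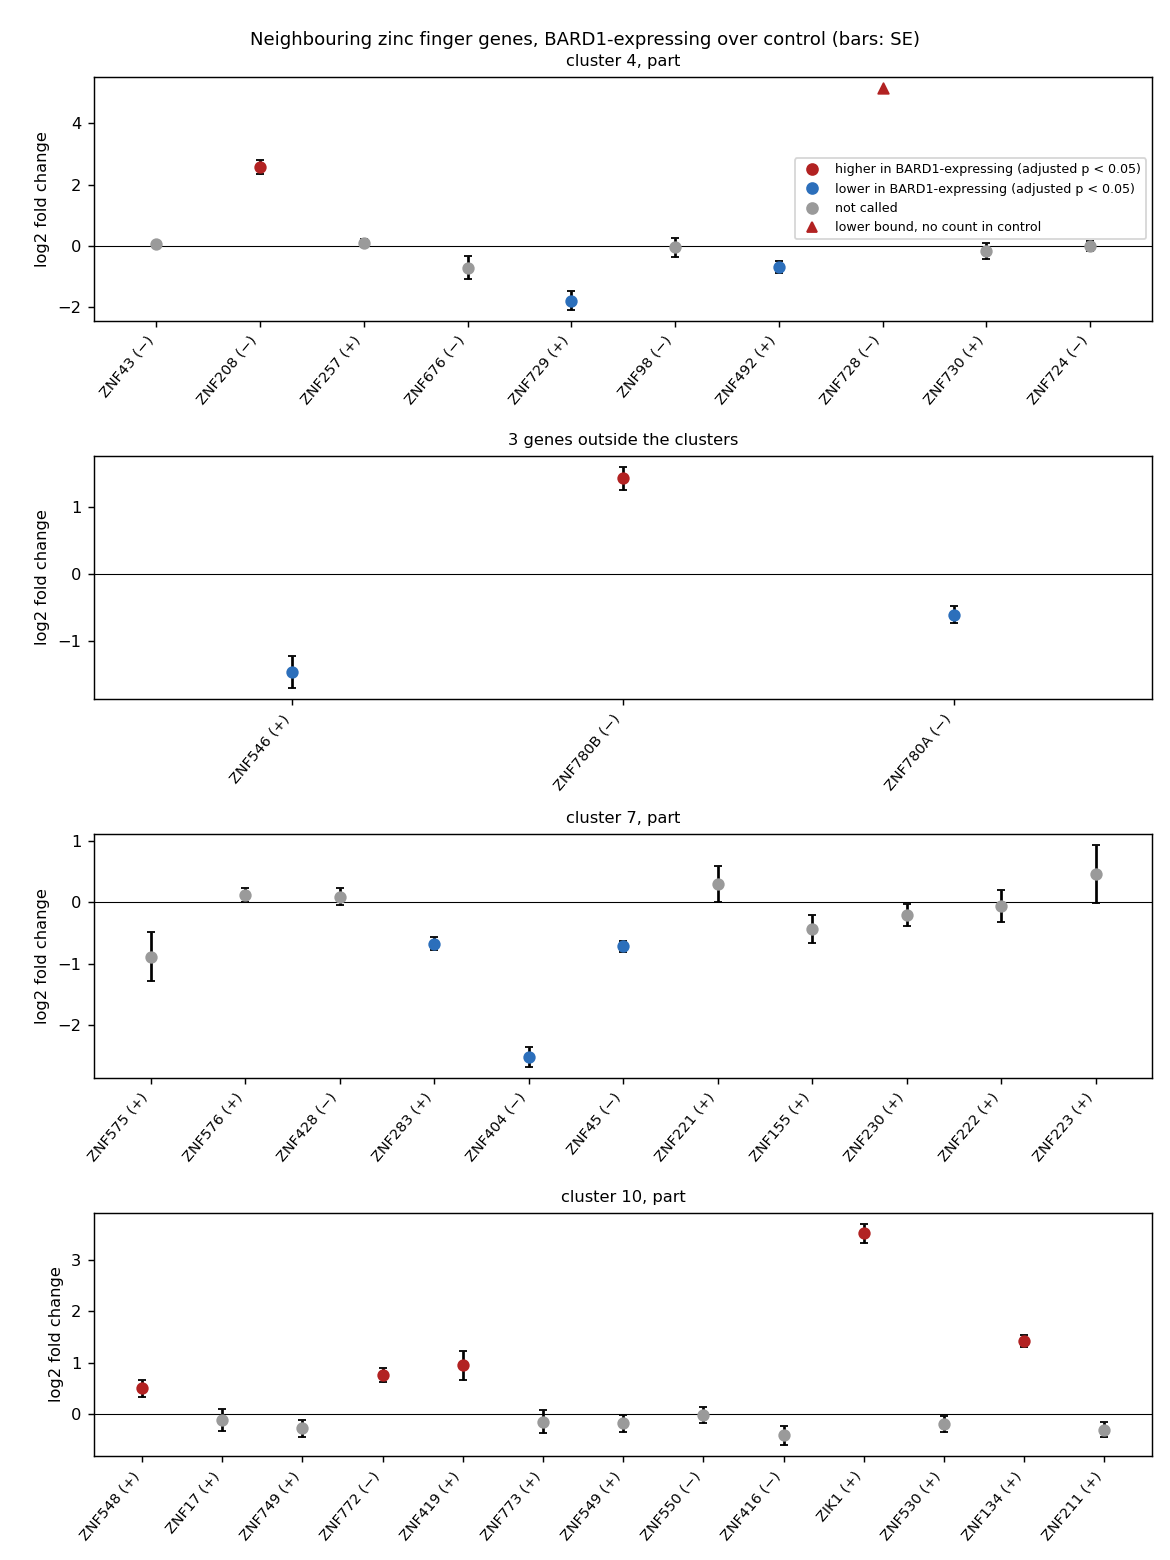
Log2 fold change (BARD1-expressing over control; bars are SE) of neighbouring tested zinc finger genes in their order on chromosome 19, with their strand, in 4 stretches; red is higher, blue lower and grey not called, and the triangle is a lower bound. ZIK1 and ZNF134 rose on either side of ZNF530, which was not called, and ZNF283, ZNF404 and ZNF45 fell side by side.

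Position along the chromosome was described by placing members less than 0.5 Mb apart in one cluster. This gave 10 clusters of at least 5 members, numbered from the short arm onwards, with 14 members outside them. Calls were most frequent in cluster 2 (8.51 to 9.79 Mb), where 3 of 11 tested members were higher and 4 lower, or 63.6% called against 29.0% of all tested genes. In cluster 4 (19.67 to 24.13 Mb) 8 of 34 were higher and 5 lower. The share called was 5.26% in cluster 3 (11.48 to 12.64 Mb) and 6.25% in cluster 9 (55.48 to 56.67 Mb), with 1 member higher and none lower in each. Median levels of tested members were 24.6 CPM in cluster 2, 6.76 CPM in cluster 4, 3.30 CPM in cluster 3 and 12.8 CPM in cluster 9. Of all tested genes, 33.8% of those of at least 10 CPM and 21.4% of those under 10 CPM were called. The part of expression level in the cluster shares was not tested.

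Counts by direction rest on few genes in each cluster, and differences between clusters were not tested; over all tested genes 16.5% were higher and 12.4% lower. Cluster 10 (57.19 to 58.48 Mb) had 7 higher (16.3%) and 1 lower (2.33%) of 43 tested, with ZIK1, ZNF418, ZNF134, ZNF419, ZNF772, ZNF548 and ZNF551 higher and ZNF587B lower. Cluster 7 (43.53 to 44.50 Mb) had 1 higher, ZNF229, and 4 lower of 22 tested. Cluster 6 (36.18 to 37.82 Mb) had 3 higher and 1 lower of 26, and cluster 8 (51.57 to 53.58 Mb) had 2 higher and 3 lower of 37. Cluster 1 (2.82 to 2.94 Mb) had 0 calls among 4 tested members by edgeR, 0 at an unadjusted p under 0.05 and 0 by DESeq2. Cluster 5 (34.68 to 34.96 Mb) had 1 lower, ZNF30, of 5. Cluster medians of the log2 fold change ranged from -0.19 in cluster 7 to 0.21 in cluster 1, which was at 0.075 without the third BARD1-expressing library, a narrow span beside the log2 fold changes of -2.51 to 3.51 of the members with counts in both groups.

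**Figure D3:**
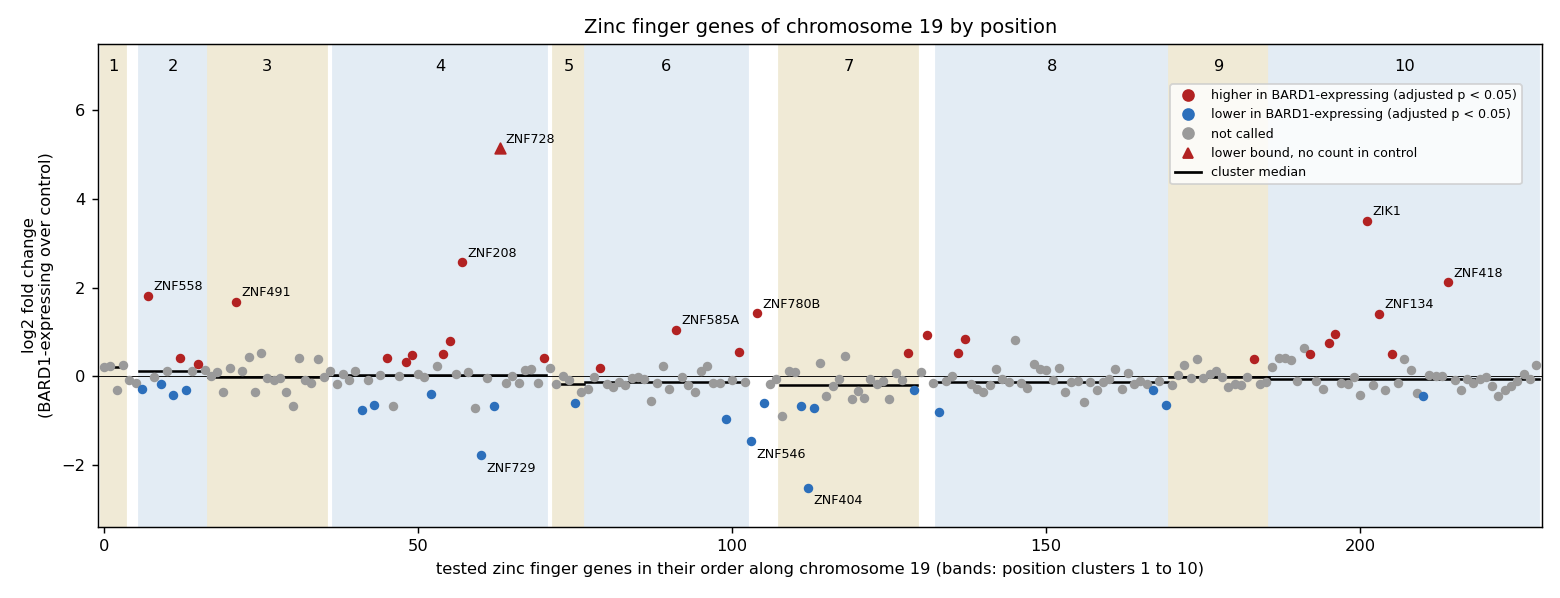
Log2 fold change (BARD1-expressing over control) of the 229 tested zinc finger genes in their order along chromosome 19, with shaded bands for the 10 position clusters and a black line at each cluster's median. Points beyond 1 on either side of 0 lie in several clusters and outside them, and medians stay between -0.19 and 0.21; the triangle marks the lower bound for ZNF728.

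Adjacent members moved the same way about as often as not. Of 207 adjacent pairs of tested members within clusters, 107 (51.7%) had log2 fold changes of the same sign. In 11 of the pairs both members were called, 6 in the same direction and 5 in opposite directions. Besides the run of 3 around ZNF404, the runs were pairs that rose: ZNF430 with ZNF714, ZNF429 with ZNF100, ZNF350 with ZNF615 and ZNF772 with ZNF419. The opposite pairs were ZNF414 with ZNF558, ZNF266 with ZNF426, ZNF426 with ZNF121, ZNF492 with ZNF728 and ZNF229 with ZNF180. Pairs were of tested members only, and some lie far apart. ZNF492 and ZNF728 are 307798 bases apart, with the untested members ZNF99 and ZNF723 between them. ZNF414 and ZNF558 are 292006 bases apart, with MYO1F and ADAMTS10, which are not zinc finger genes, between them.

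Smaller changes were found in more abundant members. ZNF114 (ENSG00000178150, 48270102 to 48287608), which lies outside the clusters, had 130, 120 and 125 CPM in BARD1-expressing libraries, against 63.0, 63.2 and 72.7 CPM in control, a log2 fold change of 0.92 ± 0.063 (edgeR adjusted p = 5.26e-11). ZNF714 (ENSG00000160352, 21082159 to 21125270) had 263, 229 and 247 CPM in BARD1-expressing libraries, against 178, 182 and 170.2 CPM in control, a log2 fold change of 0.48 ± 0.055. ZNF100 (ENSG00000197020), in the same cluster, averaged 35.1 ± 3.71 CPM in BARD1-expressing and 20.1 ± 0.755 CPM in control cells (SD, n = 3 each). Both groups were clear of each other in all 3 genes.

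Per length, ZNF114, ZNF699, ZNF146, ZNF714 and ZNF358 had the highest levels of the members. ZNF114 was at 41.9 CPM per kb in BARD1-expressing and 22.1 CPM per kb in control cells. ZNF699 was at 37.3 CPM per kb in BARD1-expressing and 42.2 CPM per kb in control cells and fell by 0.18 ± 0.054 on the log2 scale. ZNF714 was at 30.6 CPM per kb in BARD1-expressing and 22.0 CPM per kb in control cells. ZNF146, which encodes a protein made almost only of fingers, was at 31.9 CPM per kb in BARD1-expressing and 32.4 CPM per kb in control cells, and ZNF358 was at 14.3 CPM per kb in BARD1-expressing and 16.0 CPM per kb in control cells; neither was called. ZNF114 thus ranked above ZNF699 and ZNF146 in BARD1-expressing cells and below both in control cells.

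Several members with known roles had values of their own. ZNF93 (ENSG00000184635, 19900913 to 19963464), whose human protein silences LINE-1 elements, fell to 6.93 ± 0.507 CPM in BARD1-expressing cells, against 11.8 ± 0.219 CPM in control cells (SD, n = 3 each), a log2 fold change of -0.77 ± 0.119. ZNF91, which silences SVA elements, averaged 17.7 ± 0.746 CPM in BARD1-expressing and 19.9 ± 0.244 CPM in control cells and was not called (-0.16 ± 0.089). ZNF350 (ZBRK1), a repressor that binds BRCA1, was higher at 4.56 ± 0.620 CPM in BARD1-expressing cells, against 3.23 ± 0.334 CPM in control cells, a log2 fold change of 0.51 ± 0.179 (edgeR adjusted p = 0.0325), and its call was lost in 6 of 12 alternatives. ZNF331, an imprinted gene, fell to 10.4 ± 1.31 CPM in BARD1-expressing cells, against 16.5 ± 3.76 CPM in control cells. ZNF274, which binds the 3′ ends of zinc finger genes and recruits SETDB1 there, averaged 29.2 ± 1.11 CPM in BARD1-expressing and 30.5 ± 1.15 CPM in control cells and was not called. ZNF91 and ZNF274 were chosen for their known roles.

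The remaining called members changed by less than 2-fold. Among those that rose were ZNF419 (0.95 ± 0.285), ZNF615 (0.83 ± 0.179), ZNF772 (0.76 ± 0.131), ZNF607 (0.54 ± 0.068), ZNF426 (0.41 ± 0.094) and ZNF470 (0.39 ± 0.139), as log2 fold changes. Among those that fell were ZNF571 (-0.97 ± 0.291), ZNF492 (-0.68 ± 0.192), ZNF90 (-0.65 ± 0.154), ZNF30 (-0.61 ± 0.152) and ZNF266 (-0.42 ± 0.075). The call was lost in 5 of 12 alternatives for ZNF470, 3 for ZNF571, 2 for ZNF492 and 1 for ZNF419. ZNF492 shares 29.4% of its windows with ZNF98, and ZNF419 8.51% with ZNF773. With any other gene, ZNF492 shares 33.3%, ZNF419 12.2%, ZNF607 12.6% and ZNF90 11.4%, so their counts are uncertain. Of all called members, 7 shared more than 10%, among them ZNF587B at 24.1%. The median size of the log2 fold change over called members was 0.65, against 0.41 over all called genes, but 0.82 against 0.93 among genes under 10 CPM, and 0.42 against 0.31 among genes of at least 10 CPM. Of the 49 called members, ZNF577 alone had overlapping groups.

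The 21 members not tested had at most 42 counts over all 6 libraries. Of these, 5 had no count in any library: ZNF177, ZNF560, ZNF69, ZNF536 and the read-through gene ZNF816-ZNF321P. A count of 0 at these depths allows up to 0.235 CPM in the smallest library. For these 5 no comparison could be made at this depth.

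The genes through which KRAB zinc finger proteins act were mostly not called. Of 28 co-repressor and heterochromatin genes found, all tested, 2 were higher and 1 lower, with a median log2 fold change of 0.04, against 29.0% called of all tested genes. CBX5, which encodes heterochromatin protein 1 alpha, rose to 180 ± 4.66 CPM in BARD1-expressing cells, against 104 ± 2.33 CPM in control cells (SD, n = 3 each), by 0.79 ± 0.052 on the log2 scale. ATF7IP, a partner of SETDB1, rose to 148 ± 5.92 CPM in BARD1-expressing cells, against 107 ± 4.45 CPM in control cells, by 0.46 ± 0.055. DNMT1, the maintenance DNA methyltransferase, fell by 0.16 ± 0.046 (edgeR adjusted p = 0.012). That call failed in 3 of 12 alternatives.

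TRIM28 and SETDB1 were not called. TRIM28 averaged 574 ± 11.1 CPM in BARD1-expressing and 607 ± 20.5 CPM in control cells (SD, n = 3 each), a log2 fold change of -0.08 ± 0.047. SETDB1 averaged 18.4 ± 0.674 CPM in BARD1-expressing and 19.3 ± 1.22 CPM in control cells. Of 14 other named C2H2 genes of chromosome 19, such as the ZFP and ZSCAN genes, 13 were found and 9 tested. ZFP82 (0.29 ± 0.062) and ZSCAN18 (0.35 ± 0.085) rose, the other tested ones were not called, and the median of the 9 was -0.13.

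The number of CG pairs in the promoter windows of the members differed between clusters. A RefSeq promoter was matched by symbol for 218 of the 250 members. The 250 bases before the start held a median of 16 CG pairs in members, and 187 of them (85.8%) held at least 10, against a median of 11 and 52.2% for all 35116 promoters of the table. Unlike the members, the 35116 were not limited to a single promoter per gene or to protein-coding genes. The median was 15 in the 26 members called higher, 13 in the 17 called lower and 17 in the 158 tested and not called. Cluster 4, with ZNF208, ZNF714 and ZNF100, stood lowest at a median of 8, and 10 of its 29 windows held at least 10.

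A motif of 8 letters bound by ETS-family factors, ACTTCCGG or its reverse complement CCGGAAGT, was searched on both strands. It occurred in 32 member windows (14.7%), against 3.42% of all promoters, a set that is unlike the members in CG pairs and in how it was chosen, as given above. It occurred in 20 of 41 windows of cluster 10 (48.8%), in 5 of 19 of cluster 7 (26.3%), in 4 of 24 of cluster 6 (16.7%), in 2 of 33 of cluster 8, in 1 of 14 of cluster 9 and in none of clusters 1 to 5. It lies within the run that ZIK1 and ZNF134 share, so the matches in these genes are no result. Both genes are counted in the share of cluster 10 and in that of members higher. By call, the motif occurred in 4 of 26 members higher, ZIK1 and ZNF134 among the 4. It occurred in 3 of 17 lower and 24 of 158 not called, and the shares were 15.4%, 17.6% and 15.2%. These shares differ more between clusters than between the groups of calls, with no test made; a match in letters is not a bound site.

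**Figure D4:**
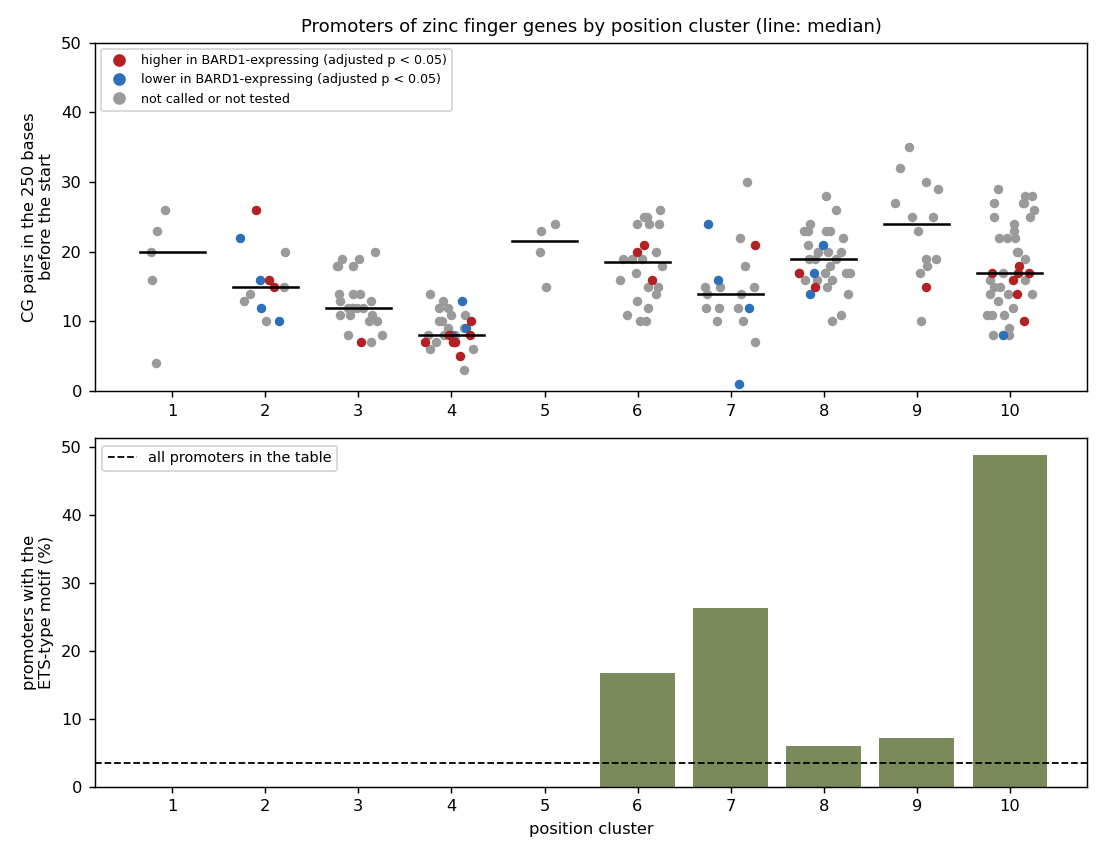
CG pairs in the 250 bases before the RefSeq start of each member with a promoter (top; lines are medians) and percent of promoters with the ETS-type motif (bottom; dashed line, all promoters of the table), by position cluster. Cluster 4 has the lowest median, 8 CG pairs, and cluster 10 the highest motif share, 48.8%, with ZIK1 and ZNF134 counted. Red and blue points, called higher and lower, are spread among the grey ones.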

How the data were processed

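RNA of 6 libraries, 3 of BARD1-expressing and 3 of control cells, was counted per gene by the authors, and the deposited table holds raw read counts. The submitters' processing notes name HISAT2 2.0.5, featureCounts 1.5.0-p3, DESeq2 1.20.0 and the GRCh38 (hg38) build, without roles or options; strand and the handling of shared reads are not given in the sources used here. Per the labels' protocols, poly-T beads purified the mRNA, and the library step names directional and non-directional versions.

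Groups were taken from the labels. The tests used edgeR 4.0.16 (limma 3.58.1) under R 4.3.3: filterByExpr, trimmed mean of M values (TMM) scaling, robust quasi-likelihood F test on group alone over the whole table, and Benjamini-Hochberg adjustment. CPM are TMM-scaled, and the SE of a log2 fold change is its size over the square root of F. A fold against a group without counts is a lower bound, with 3 counts set for the group's pooled libraries. The procedure was tested on simulated data. Replicates within a group differed by more than sampling noise (chi-square per degree of freedom 3.41 to 8.11), so all were kept.

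Named genes were the switched members, the 10 highest and 10 lowest log2 fold changes among called members of at least 1 CPM without overlap, the 5 highest CPM per kb, the 3 smallest p-values in each cluster, and called genes of 2 lists; others are said to be chosen by value or role, or listed as members of a count. The members and lists were chosen with earlier results of these data known. Windows of 50 bases were compared between GENCODE v29 transcripts, with which the coordinates of all 250 members matched; promoters are RefSeq's (GRCh38.p14). Alternatives were other scalings, DESeq2 1.42.0, other filters, a replicate block, other switch limits and cluster gaps, and leaving out each library. Protein features were not analysed here.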

Additional observations from a re-analysis of the deposited data

How the results depend on the processing

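Across other scalings, DESeq2, other filters, the replicate block and leaving out each library, between 38 (DESeq2) and 49 members were called, with 35 to 49 of the original calls shared. Members called higher numbered 22 to 29 and lower 17 to 26 when libraries were left out. Without the first BARD1-expressing library 45.8% of calls were higher, against 57.1% in all 6. Of the 49 called members, 28 kept their call under every alternative that tested them and 21 lost it in at least 1, ZNF491 being the only one of the 12 at 2-fold or more. Log2 fold changes ranged from 3.31 to 3.81 for ZIK1 and from -2.61 to -2.43 for ZNF404. Of 57 genes followed across the alternatives, those called or named by rule, only ZNF146, not called, changed sign. Its log2 fold change ran from -0.066 without the first to 0.028 without the second BARD1-expressing library. Other genes given with values here were not followed in this way.

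With the replicate number as a block, 46 members were called, all among the 49; same-numbered libraries did not deviate together (r = -0.11, -0.03 and -0.01), so the numbers do not pair them, and no library correlated best with its own number. Repressor machinery genes called lower numbered 0 with the block, 2 without a filter and 0 to 2 with a library left out. Members switched on numbered 1 to 2 with a library left out. Leaving out libraries moved the median of tested members between -0.089 and -0.042, and the medians of cluster 1 between 0.075 and 0.23, cluster 2 between -0.034 and 0.17, cluster 3 between -0.014 and 0.075, cluster 4 between -0.012 and 0.076, cluster 5 between -0.28 and -0.16, cluster 6 between -0.18 and -0.034, cluster 7 between -0.30 and -0.15, cluster 8 between -0.18 and -0.053, cluster 9 between -0.058 and 0.015 and cluster 10 between -0.075 and -0.011, so that the medians of clusters 2, 3, 4 and 9 changed sign; the cause was not tested. By DESeq2, clusters 3, 6, 8 and 9 had 0, 2, 3 and 0 calls, against 1, 4, 5 and 1 by edgeR. The medians of all members and of cluster 4 were -0.07 and 0.02 also with ZNF728 at its lower bound. A gap of 0.25 Mb gave 12 clusters and a gap of 1.0 Mb gave 9. Members of low count rest on few reads, with a floor of up to 0.235 CPM in the smallest library.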
